A study of Mus musculus with 6 samples.

Results

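The stress keratins Krt6a, Krt6b, Krt16 and Krt17 were followed in single-cell RNA of mouse skin, in which 16158 genes were measured in 21178 cells. The 4 genes were chosen by name, and all 4 had values in all 6 libraries. The skin came from mice of the NINJA strain, 6 to 12 weeks old, and the skin area taken had been treated with 4-OH-Tam in every group. NINJA mice carry a neoantigen that can be switched on, and the series describes 3 groups of 2 mice: NO_AG with the antigen off, AG with the antigen on, and AG_CPI with the antigen on plus CPI, which the labels do not spell out. The labels describe no wound, and the animals used were those that had shown the phenotype of their group, judged by visible skin disease or its absence and by the P14 CD8 T cells, a T cell receptor transgenic line, found in their skin. The labels call the 2 mice of a group biological replicates and give no sex, batch or date, nor the cell type that carries the switched-on antigen. Keratinocytes were defined as cells with at least 50 UMIs of Krt5 and Krt14 together per 10000 UMIs of the cell and no UMI of Ptprc, the pan-leukocyte gene, where a UMI is 1 counted RNA molecule. This gave 6268 of 20461 retained cells.

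Keratins are the intermediate filament proteins of epithelia, and each filament pairs a type II keratin with a type I keratin. Krt6a and Krt6b encode type II proteins, and Krt16 and Krt17 encode type I proteins that pair with them. Unwounded epidermis between the follicles holds little of these proteins, whereas the hair follicle and its companion layer make some of them without injury. After wounding, and in inflamed skin, keratinocytes switch them on above the basal layer, which is why they are called stress or wound keratins.

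In the mm10 genome the type II pair lies on chromosome 15 and the type I pair on chromosome 11, each pair side by side on the minus strand. Krt6a spans chr15:101689910-101694307 with 9 exons and Krt6b spans chr15:101676023-101680287 with 9 exons. Krt16 spans chr11:100246091-100248902 with 8 exons and Krt17 spans chr11:100256217-100261029 with 8 exons. Positions and transcripts are those of the GENCODE M21 annotation. The first 90 coding bases are shown because the library kit reads RNA from its 5' end and because the pairs differ in how far such reads can be told apart. They are written 5' to 3' in lower case, with capitals where a base differs from that of the pair's other gene.
Krt6a: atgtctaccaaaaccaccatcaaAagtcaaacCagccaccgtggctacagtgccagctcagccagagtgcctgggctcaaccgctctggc
Krt6b: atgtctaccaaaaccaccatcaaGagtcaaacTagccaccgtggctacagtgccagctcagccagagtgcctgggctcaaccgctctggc
Krt16: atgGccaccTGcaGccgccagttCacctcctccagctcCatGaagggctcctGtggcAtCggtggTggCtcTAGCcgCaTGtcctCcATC
Krt17: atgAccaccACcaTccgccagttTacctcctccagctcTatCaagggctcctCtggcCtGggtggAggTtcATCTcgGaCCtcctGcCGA

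Krt6a and Krt6b differ at 2 of these bases, and Krt16 and Krt17 at 23. Over the whole coding sequence Krt6a and Krt6b were 97.6% identical, with 37 differing bases, and Krt16 and Krt17 were 70.4% identical. Of all 90-base windows of the Krt6a transcript, 37.1% occur unchanged in another annotated gene, Krt6b and Krt5 among them, and of those of Krt6b 33.6% do. For Krt16 the share was 26.2%, shared with Krt14 and the gene model Gm11597, and for Krt17 it was 0. In the first 500 bases the shares were 62.5% for Krt6a, 46.5% for Krt6b, 16.1% for Krt16 and 0% for Krt17. How the authors' counting treated reads that fit more than 1 gene is not given in the sources used here, so the levels of Krt6a, Krt6b and Krt16 are uncertain to that degree, and Krt6a and Krt6b in particular may have lost or exchanged reads.

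The libraries held 1736 to 4972 cells and 5903724 to 24656382 UMIs, with a median of 2527 to 4744 UMIs per cell. There were 1933 and 1559 keratinocytes from NO_AG, 879 and 1565 from AG, and only 143 and 189 from AG_CPI. All 12 keratinocyte markers, from Krt5 to Epcam, were detected in the keratinocytes of every library. AG 2 stood apart: its keratinocytes had a median of 2535 UMIs, against 3613 to 6945 elsewhere, and the 12 T cell and 10 myeloid markers summed to 4.50 and 6.69 per 10000 in them, against 0.691 to 3.23 and 0.148 to 3.32 in the other libraries. Only 11.3% of AG 2 keratinocytes had no UMI of the leukocyte genes checked, against 29.1% to 71.4% in the other libraries. AG_CPI 1 differed in sex-linked genes: its keratinocytes had 0.0977 Xist UMIs and 0.452 Ddx3y UMIs per 10000, against 3.88 to 6.37 and 0 in the other mice, while its T cells had 4.30 Xist UMIs, against 5.02 to 8.53, and 0.123 Ddx3y UMIs, against 0. Each library shared 44 to 119 cell barcodes with the other libraries, and the number to be shared by chance was not computed. Each tested difference within a cell class or gate was also computed without each library. The interactions between gates were not.

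Krt16 was higher in both AG and both AG_CPI mice than in either NO_AG mouse, as were 15.7% and 19.5% of tested genes. Its keratinocyte level, as the mean UMIs per 10000 over cells, was 0.138 and 0.131 in the NO_AG mice, 0.977 and 7.85 in the AG mice and 7.22 and 3.01 in the AG_CPI mice. The NO_AG mice were close together, whereas the AG mice lay far apart, with AG 1 the lowest of the 4 antigen-exposed mice. Group means were 0.134 ± 0.00522 in NO_AG, 4.41 ± 4.86 in AG and 5.11 ± 2.98 in AG_CPI (SD, n = 2). Krt16 rests on 117 to 4104 UMIs per library. The 7 Langerhans or dendritic cell markers include the class II presentation genes Cd74, H2-Aa, H2-Ab1 and H2-Eb1. Their sum in keratinocytes was also lowest in the NO_AG mice, at 3.91 and 5.41 per 10000. It was 9.88 and 26.6 in the AG mice and 12.5 and 20.7 in the AG_CPI mice, and which cells made this RNA was not tested. Of these markers 5 to 7 were detected, with Cd207, which defines Langerhans cells, at 0 in both AG_CPI mice and Flt3 at 0 in all mice but AG 2. In keratinocytes with no UMI of the leukocyte genes checked, which include the marker Cd74, the log2 difference of Krt16 was 2.88 for AG and 4.27 for AG_CPI against NO_AG, and neither passed the limma test. This choice also leaves out any keratinocyte with Cd74 RNA of its own.

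Krt6a, the major type II stress keratin, was 0.414 and 0.990 per 10000 in the NO_AG mice, 0.896 and 14.5 in the AG mice and 8.97 and 3.29 in the AG_CPI mice. AG 1 lay within the NO_AG range, so the AG and NO_AG mice overlapped. Both AG_CPI mice lay above both NO_AG mice, as for 19.5% of tested genes. Krt6b, its near-identical neighbour, was almost absent outside 3 mice. Its level was 0 and 0.00104 per 10000 in the NO_AG mice, 0.00368 and 1.39 in the AG mice and 2.83 and 0.0757 in the AG_CPI mice. These levels stand for 0 and 1 UMIs in the NO_AG pair, 2 and 744 in the AG pair, and 90 and 12 in AG_CPI.

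Krt17 behaved differently, being abundant in every mouse. It was 18.1 and 28.4 per 10000 in the NO_AG mice, 37.4 and 29.9 in the AG mice and 13.3 and 21.3 in the AG_CPI mice. Both AG mice lay above both NO_AG mice, as for 15.7% of tested genes, and above both AG_CPI mice, as for 17.1%. The NO_AG and AG_CPI mice overlapped. Krt17 was the only stress keratin whose group mean was lowest in AG_CPI, at 17.3 ± 5.63, against 23.3 ± 7.31 in NO_AG and 33.6 ± 5.35 in AG (SD, n = 2).

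**Figure D1:**
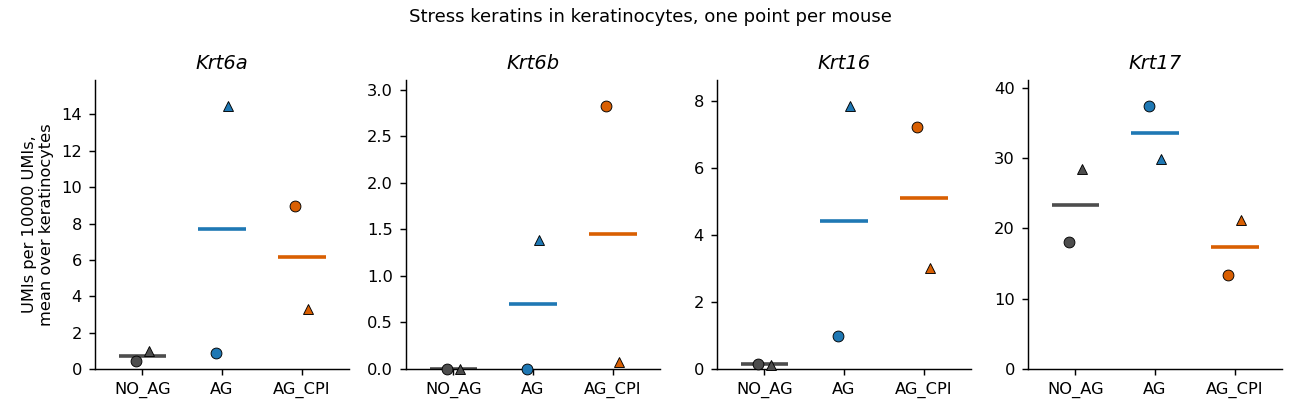
Mean UMIs per 10000 over the keratinocytes of each mouse (vertical axes, linear, a scale of its own for each gene) in the 3 groups, with circles for replicate 1, triangles for replicate 2 and a bar at the group mean. Krt16 in both AG and both AG_CPI mice lies above both NO_AG mice, Krt6a of AG replicate 1 lies within the NO_AG range, and Krt17 is high in every mouse.

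None of the 4 genes passed the test in keratinocytes. The fit was limma-trend on log2 of the scaled level plus 0.1, across 8343 genes and all 6 mice, with Benjamini-Hochberg adjustment and a threshold of 0.05. AG against NO_AG called 0.503% of the genes and AG_CPI against NO_AG 0.587%, or 31 higher and 18 lower. With the deposited scaling alone the higher share of the latter calls went from 63.3% to 50.9%. AG_CPI against AG called 0 genes, with 700 at an unadjusted p under 0.05. For Krt16 the log2 difference was 3.70 (SE 0.83, adjusted p = 0.222) for AG against NO_AG, 4.42 (adjusted p = 0.0802) for AG_CPI against NO_AG, and 0.72 (adjusted p = 0.842) for AG_CPI against AG. Krt6a gave 2.42 (SE 1.12, adjusted p = 0.664), 2.98 (adjusted p = 0.273) and 0.55 (adjusted p = 0.925) in the same order. Krt17 gave 0.64 (SE 0.28, adjusted p = 0.631), -0.33 (adjusted p = 0.611) and -0.98 (adjusted p = 0.561). Krt6b passed the filter on low values only through AG 2 and AG_CPI 1, and its fitted differences, with adjusted p from 0.407 to 0.899, depend on the pseudocount. With 2 mice a side, an exact permutation test cannot go below p = 0.33, so each call rests on the spread that limma shares across genes.

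Krt6b is left out of the counts of groups without overlap, since the filter it passed fixes where it is high. Both AG mice lay above both NO_AG mice for Krt16 and Krt17 of the other 3 genes, as for 15.7% of all tested genes. Both AG_CPI mice lay above both NO_AG mice for Krt6a and Krt16, against 19.5% of all genes. Against AG, both AG_CPI mice were lower for Krt17 alone, as for 17.1% of genes, and Krt6a and Krt16 overlapped. The comparisons share their control mice, so these counts are not separate observations.

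Whether Krt16 passed depended on the AG mice. Without AG 1, Krt16 passed in AG against NO_AG with a log2 difference of 5.11 (adjusted p = 0.0251), and without AG 2 the difference was 2.28 (adjusted p = 0.447). In AG_CPI against NO_AG, Krt16 passed without AG 1 (adjusted p = 0.0283) and without AG 2 (adjusted p = 0.0288), with the difference at 4.42 in both. When UMIs were summed over cells before scaling, so that deep cells weigh more, Krt16 passed in both comparisons, with adjusted p = 0.0408 and 0.0235.

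The share of cells with a UMI was compared after each cell had been thinned to 1500 UMIs, since depth differed between libraries. All keratinocytes were deep enough for this. Krt16 was found in 1.03% and 1.22% of NO_AG keratinocytes, 6.14% and 43.0% of AG keratinocytes, and 7.69% and 14.3% of AG_CPI keratinocytes. The Wilson 95% interval reached up to 1.59% and 1.90% in NO_AG and down to 4.74% in AG 1, so these mice were apart beyond counting error. Krt6a was found in 3.88% and 5.58%, in 7.96% and 60.5%, and in 26.6% and 23.3% of cells. Krt17 was found in 44.0% and 57.2%, in 69.7% and 83.8%, and in 45.5% and 46.0%. Krt6b was found in 11.5% of cells in AG 2 and 4.90% in AG_CPI 1, and in 0.0641% or fewer elsewhere. At 0 of 1933 cells in NO_AG 1, a share of up to 0.155% is allowed. Without thinning the Krt16 shares were 2.64% and 3.59%, 13.4% and 51.8%, and 11.9% and 21.2%.

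**Figure D2:**
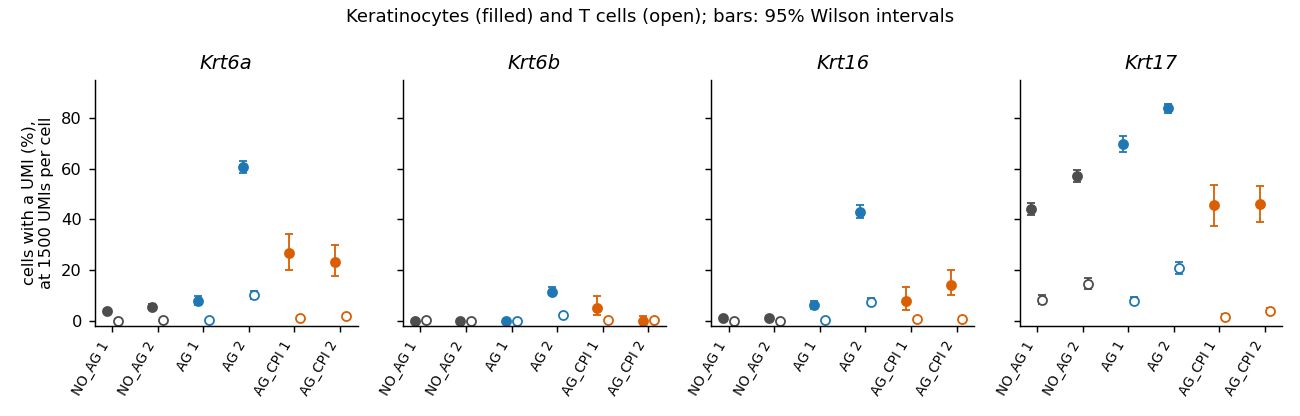
Share of cells with at least 1 UMI of each stress keratin (vertical axis, percent of cells thinned to 1500 UMIs) in keratinocytes (filled) and T cells (open) of each mouse, with Wilson 95% intervals for counting error. In keratinocytes Krt16 runs from 1.03% in NO_AG replicate 1 to 43.0% in AG replicate 2, and in T cells the largest Krt16 share is 7.57%, also in AG replicate 2.

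A high mean could come from many cells or from a few, and the mice differed in this. The 10% of AG 2 keratinocytes with the highest Krt16 held 64.6% of its Krt16 UMIs, whereas in AG_CPI 1 they held 98.8%. In AG_CPI 1 a single cell reached 335 Krt16 UMIs per 10000, and the mean without that cell was 4.92 in place of 7.22. For Krt6a the top 10% held 51.1% in AG 2, 78.9% in AG_CPI 1 and 67.5% in AG_CPI 2. AG_CPI values thus rest on few cells: 17 and 40 keratinocytes with Krt16, and 8 and 5 with Krt6b.

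Since follicle cells make some of these keratins without injury, keratinocytes were split by other genes. Cells with at least 20 Krt1 and Krt10 UMIs per 10000 formed a suprabasal gate, cells with at least 5 of the upper follicle genes Krt79, Defb6 and Cst6 an upper follicle gate, cells with at least 5 of the bulge or germ genes Cd34, Lgr5, Postn and Lhx2 a bulge or germ gate, and the rest the remaining cells. These gates are ranges of a continuous level. Of the 758 suprabasal cells 189 lay within 1.5-fold above the limit, and 204 cells lay within 1.5-fold below it. The mix differed between mice: the upper follicle gate held 65.4% of keratinocytes in AG 2 and 49.7% in AG_CPI 2, against 21.7% to 31.9% in the other mice.

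In the suprabasal gate Krt16 rose under AG_CPI against NO_AG. Its level was 0.516 and 0.0916 per 10000 in the NO_AG mice, 2.64 and 14 in the AG mice and 24.8 and 12.0 in the AG_CPI mice. The NO_AG mice were lowest and did not overlap with either other group, and the AG and AG_CPI mice overlapped. The log2 difference between AG_CPI and NO_AG was 5.64 (SE 0.72, adjusted p = 0.0118, limma), the 1 call among the 4 stress keratins in a comparison that called 0.410% of 7556 genes. Both AG_CPI mice exceeded both NO_AG mice, as for 17.7% of genes. The AG_CPI mice held 40 and 37 such cells, with 237 and 270 Krt16 UMIs. After thinning, 15.0% and 43.2% of these cells had a Krt16 UMI, against 2.44% and 1.83% in NO_AG and 10.0% and 67.3% in AG. Without its highest cell AG_CPI 1 was still at 16.8. The call was lost without AG_CPI 1 (adjusted p = 0.0872), without AG_CPI 2 (adjusted p = 0.0766) and with no filter on low values (adjusted p = 0.171). Over its 15 alternatives the adjusted p ran from 0.00198 to 0.171. Myeloid markers summed to 8.27 and 0.967 per 10000 in the suprabasal cells of AG_CPI and to 0.488 and 1.67 in those of NO_AG, and T cell markers to 2.73 and 3.44 against 1.32 and 3.89. Their part in the result was not tested.

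For AG against NO_AG the suprabasal Krt16 difference was 4.25 (SE 0.72), which missed the threshold at an adjusted p of 0.0601, where 0.225% of genes were called (100% of them higher, or 78.9% with the deposited scaling) and 14% were higher in both AG mice. It passed in 7 of 15 alternatives, among them lower and higher gate limits, with adjusted p from 0.00816 to 0.490. Without AG 2 it was 3.14 (adjusted p = 0.490). AG_CPI and AG did not differ detectably in suprabasal Krt16, at 1.39 (SE 0.72, adjusted p = 0.642), and 0 genes were called there, with 620 at an unadjusted p under 0.05.

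The type II partner Krt6a was low in the NO_AG mice of the suprabasal gate as well. It was 0.314 and 0.169 per 10000 in the NO_AG mice, 1.21 and 22.1 in the AG mice and 19.2 and 7.10 in the AG_CPI mice. Both mice of each antigen group lay above both NO_AG mice, as for 14% of genes in AG and 17.7% in AG_CPI. Its difference between AG_CPI and NO_AG was 5.13 (SE 0.99, adjusted p = 0.0789), and the adjusted p was 0.00509 without AG 1 and 0.00732 without AG 2. For AG against NO_AG it was 4.09 (adjusted p = 0.275), or 6.05 (adjusted p = 0.00821) without AG 1. Krt6b was 0 in both NO_AG mice and in AG 1, then 4.22, 9.70 and 0.387 in the others, with 245, 86 and 12 UMIs. Krt17 was 6.49 and 13.7 in the NO_AG mice, 30.9 and 26.4 in the AG mice and 8.17 and 32.9 in the AG_CPI mice. Both AG mice exceeded both NO_AG mice for Krt17, as for 14% of genes, at a difference of 1.68 (SE 0.58, adjusted p = 0.769). The AG_CPI mice lay far apart, with 430 of the 684 UMIs of AG_CPI 2 in 1 cell.

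**Figure D3:**
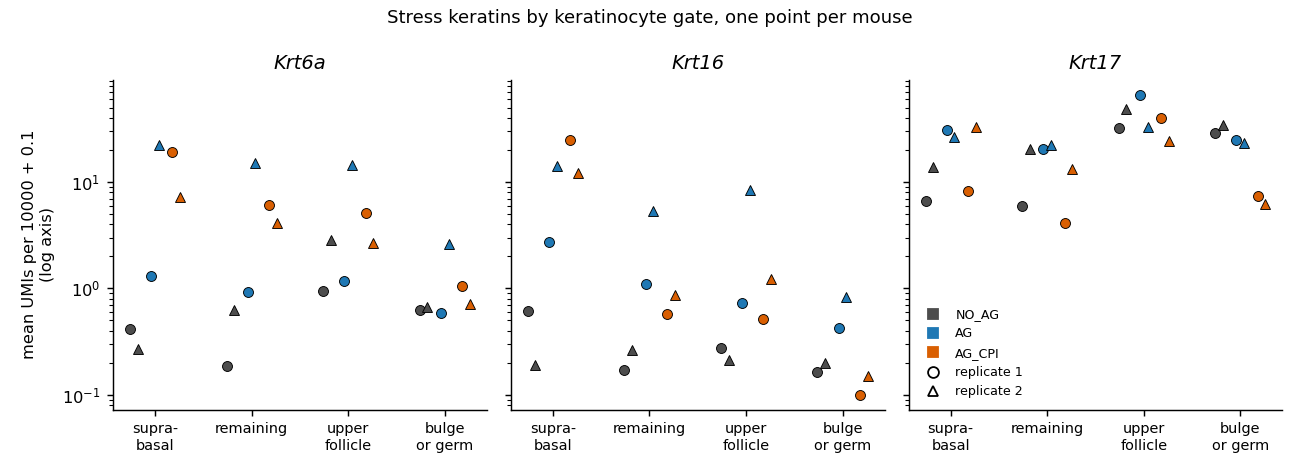
Mean UMIs per 10000 plus 0.1 (vertical axis, log scale) of Krt6a, Krt16 and Krt17 in the 4 keratinocyte gates, with 1 point per mouse, colours for groups and symbols for replicates. Krt16 in AG_CPI mice is 24.8 and 12.0 in the suprabasal gate and 0.479 and 0.766 in the remaining cells, and Krt17 in the bulge or germ gate is lowest in the AG_CPI mice.

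Krt17 fell in the bulge or germ gate under AG_CPI. This gate covers the stem cell region of the follicle, where its level was 28.7 and 34.4 per 10000 in the NO_AG mice, 24.5 and 23.0 in the AG mice and 7.25 and 6.11 in the AG_CPI mice. The 3 groups did not overlap, and the mice of each group were close together. The log2 difference was -2.18 (SE 0.14, adjusted p = 0.00364, limma) for AG_CPI against NO_AG, among 0.435% of 8504 genes called, and -1.87 (SE 0.14, adjusted p = 0.0110) for AG_CPI against AG. Krt17 was the 1 gene called in the latter comparison, or 0.0118% of those tested, with 1370 genes at an unadjusted p under 0.05. Both AG_CPI mice were lower than both mice of the other group in each comparison, as were 32.8% and 25.4% of genes. The median over all genes was itself -0.16 in both comparisons. For AG against NO_AG the difference was -0.30 (SE 0.14, adjusted p = 1), with both AG mice lower, as for 29.8% of genes. Krt6a and Krt16 were not called there, and Krt6b did not pass the filter. Krt16 was low, at 0.0643 and 0.101 for NO_AG, 0.322 and 0.725 for AG, then 0 and 0.0492 for AG_CPI. Its difference for AG against NO_AG was 1.76 without AG_CPI 1 and 1.77 without AG_CPI 2. For AG_CPI against AG it was -2.01 and -2.61, in fits that called many genes. Krt16 reached the filter's 0.1 in NO_AG 2, at 0.101, and the AG mice alone. Its test was thus open mainly through the group where it is high. Without AG_CPI 2 the AG_CPI level is 0, so the added 0.1 sets that difference.

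The AG_CPI values of Krt17 rest on 14 and 35 bulge or germ cells with 90 and 129 UMIs. After thinning, 57.1% and 28.6% of these cells had a Krt17 UMI, against 60.4% and 76.1% in NO_AG and 72.0% and 70.5% in AG, and the Wilson interval of AG_CPI 1, from 32.6% to 78.6%, covers all of these values but that of AG_CPI 2. The call against NO_AG was lost without NO_AG 2 (adjusted p = 0.0836), without AG 1 (adjusted p = 0.103) and without AG 2 (adjusted p = 0.1005), and over the 15 alternatives the difference ran from -2.55 to -2.03. The call against AG was lost without either AG mouse (adjusted p = 0.588 and 0.602), with no filter on low values (adjusted p = 0.153), with lower gate limits (adjusted p = 0.104) and with gates set on thinned cells (adjusted p = 0.224), while the difference stayed between -2.31 and -1.77. The 7 Langerhans or dendritic cell markers summed to 12.3 and 28.0 per 10000 in these cells of AG_CPI, 10.9 and 23.1 in AG and 2.02 and 1.75 in NO_AG. Flt3 was at 0 in all 6 mice and Cd207 in all but NO_AG 1. So 5 of the 7, the class II genes and Mfge8, carry the AG and AG_CPI sums, and their part in the result was not tested. Without 1 AG_CPI mouse the fit called 1066 to 3397 genes in these comparisons, with the lone mouse assumed to vary like the others.

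In the other gates no stress keratin passed. In the remaining cells Krt16 was 0.0710 and 0.165 in the NO_AG mice, 0.989 and 5.29 in the AG mice and 0.479 and 0.766 in the AG_CPI mice, with both mice of each antigen group above both NO_AG mice, as for 17.8% of genes in AG and 16.3% in AG_CPI. Krt6a was 0.0871 and 0.521, 0.832 and 15.1, and 5.97 and 4.06 in the same order, also without overlap with NO_AG. Krt17 was 5.89 and 20.2, 20.4 and 21.97, and 4.04 and 13.1. Both AG mice lay above both NO_AG mice for Krt17, and both AG_CPI mice lay below both AG mice for Krt16 and Krt17, as for 22.2% of genes, at differences of -1.76 (adjusted p = 0.489) and -1.50 (adjusted p = 0.498). In the upper follicle gate Krt16 was 0.175 and 0.113 in the NO_AG mice, 0.635 and 8.31 in the AG mice and 0.421 and 1.12 in the AG_CPI mice, again without overlap, as for 12.9% and 15.9% of genes. Krt6a there was 0.847 and 2.78, 1.09 and 14.5, and 5.04 and 2.601, so both antigen groups overlapped with NO_AG. Krt17 there was 32.4 and 48.9, 66.1 and 33.2, and 39.97 and 24.3, with all groups overlapping. Adjusted p in these 2 gates ran from 0.144 to 1, where AG against NO_AG called 0.232% and 0.0841% of genes and AG_CPI against NO_AG 0.171% and 0.024%.

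Whether the group difference itself depended on the gate was tested as an interaction, and 0 of 8910 genes passed for the suprabasal gate against the remaining cells. At an unadjusted p under 0.05 there were 1025 genes for AG_CPI against NO_AG and 893 for AG_CPI against AG. The Krt16 difference between AG_CPI and NO_AG was 3.85 larger on the log2 scale in the suprabasal gate than in the remaining cells (SE 0.88, unadjusted p = 0.00287, adjusted p = 0.404), and that between AG_CPI and AG was 3.15 larger (adjusted p = 0.418). The Krt17 differences between the same pairs of groups were 1.29 (adjusted p = 0.407) and 0.62 (adjusted p = 0.659) larger. The other 5 pairs of gates gave no call either. Among them the Krt16 response to AG_CPI against NO_AG was 6.18 larger in the suprabasal than in the bulge or germ gate (SE 0.95, adjusted p = 0.231), and that of Krt6a was 2.75 smaller in the upper follicle gate than in the remaining cells, written as -2.75 (SE 0.34, adjusted p = 0.278).

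In single keratinocytes of each mouse Krt16 was found in a larger share of the cells with Krt6a than of those without. Both genes were also found in more cells of the antigen-exposed mice, and whether their joint detection differed between groups was not tested. Pearson's r between their deposited log10 values over the keratinocytes of a library was 0.08 and 0.14 in the NO_AG mice, 0.31 and 0.66 in the AG mice and 0.49 and 0.40 in the AG_CPI mice. These values describe cells that share a library, and sparse counts hold r down where a gene is rare, as both were in NO_AG. In thinned cells of AG 2, 63.8% of those with Krt6a also had Krt16, against 11.2% of those without Krt6a. In AG 1 the shares were 24.3% and 4.57%, and in AG_CPI they were 15.8% and 4.76% in replicate 1 and 27.3% and 10.3% in replicate 2. In NO_AG the shares were 2.67% and 0.969% in replicate 1 and 5.75% and 0.951% in replicate 2, from 2 and 5 cells with both. The r of Krt6b with Krt16 was 0.10 in AG 1, 0.49 in AG 2, 0.86 in AG_CPI 1 and 0.45 in AG_CPI 2, from 2, 274, 8 and 5 cells with a Krt6b UMI. In NO_AG only 1 cell had one. The pairs Krt6a with Krt6b and Krt16 with Krt14 share transcript windows, so reads assigned between them could add to their r.

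**Figure D4:**
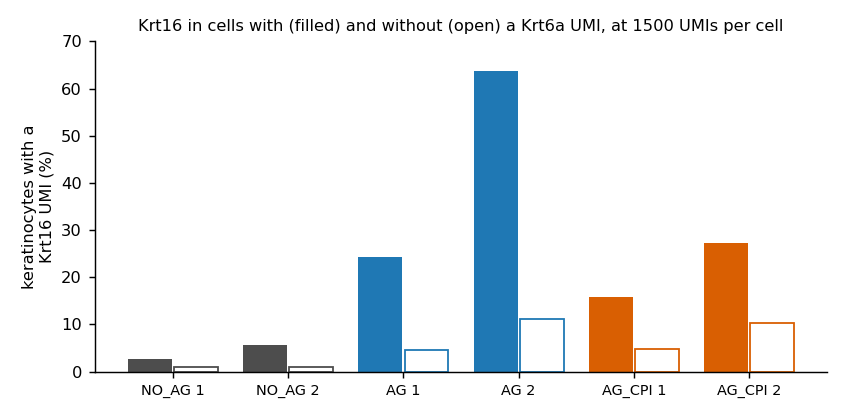
Share of keratinocytes with a Krt16 UMI (vertical axis, percent, from 0) among cells with (filled bars) and without (open bars) a Krt6a UMI in each mouse, all cells thinned to 1500 UMIs. The filled bar is the higher in every mouse, from 2.67% against 0.969% in NO_AG replicate 1 to 63.8% against 11.2% in AG replicate 2.

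Krt17 was read against the other keratins in the same way. Its r with Krt6a was 0.25 and 0.29 for NO_AG, 0.09 and 0.30 for AG, then 0.24 and 0.19 for AG_CPI. In NO_AG this exceeded the r of Krt6a with Krt16. In thinned cells of NO_AG 1, 81.3% of those with Krt6a had Krt17, against 42.5% of those without. With Krt16 the r of Krt17 was 0.03 to 0.28, positive in each library. In AG 2, 94.1% of cells with Krt16 had Krt17, against 76.1% of those without, whereas in AG_CPI 2 the shares were 40.7% and 46.9%. Its r with Krt14 ran from -0.30 to 0.12, negative in 5 of 6 libraries. With Krt1, the suprabasal keratin, Krt17 had r from -0.19 to 0.05, and Krt16 with Krt1 had 0.06 and -0.00358 in the NO_AG pair, 0.12 and 0.29 in the AG pair, and 0.36 and 0.54 in AG_CPI. Krt6a with Krt1 was -0.05 and -0.08 in the NO_AG pair, 0.07 and 0.28 in the AG pair, and 0.09 and 0.45 in AG_CPI.

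The genes most like each stress keratin were ranked by the median r over libraries among 1160 genes with a level of at least 1 per 10000 in at least 4 libraries. For Krt16 they were Sfn, which encodes the epithelial protein stratifin (median r 0.28), Fabp5, a fatty acid carrier (0.25), Krt1 (0.20), 1810037I17Rik (0.20) and Ly6d (0.20). For Krt6a they were Sfn (0.30), Sbsn (0.25), Fabp5 (0.24), the chemokine gene Cxcl9 (0.23) and S100a6 (0.22). For Krt6b, over the 5 libraries with a UMI, they were Sprr1a, a cornified envelope precursor (0.22), Sfn (0.22), Fabp5 (0.21), 1810037I17Rik (0.21) and Lypd3 (0.20). For Krt17 they were the cell adhesion gene Epcam (0.42), Krt79, a keratin of the upper follicle (0.42), Barx2 (0.40), Calml3 (0.39) and Lap3 (0.39). Sfn and Fabp5 stand in the lists of Krt6a, Krt6b and Krt16, and no gene of these 3 lists stands in that of Krt17. In NO_AG, r of Fabp5 with Krt16 was 0.06 and -0.02, against 0.58 in AG 2, so the medians hide a spread between libraries.

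Other epidermal keratins were read beside them. Of 15 listed, 7 passed the filter. Krt1, made in cells that have left the basal layer, rose in AG_CPI against NO_AG with a log2 difference of 2.20 (SE 0.27, adjusted p = 0.0302), from 3.84 and 4.35 per 10000 to 14.3 and 22.5. The suprabasal gate held 28.0% and 19.6% of keratinocytes in AG_CPI and 8.48% and 14% in NO_AG. Krt1 is one of the genes that define this gate, so its part in the difference was not tested. Krt1 passed in 10 of 19 alternatives. The call was lost without NO_AG 1, NO_AG 2, AG_CPI 1 or AG_CPI 2 (adjusted p = 0.161, 0.208, 0.116 and 0.0846), with no filter on low values (adjusted p = 0.142), with the keratinocyte limit at 20 or 150 (adjusted p = 0.0615 and 0.141) and with no leukocyte UMI (adjusted p = 0.0502), at differences of 1.91 to 2.49. It was also lost outside the gates, where cells with much Krt1 are left out by construction. The list's median difference was -0.15, against -0.01 over all genes. In AG against NO_AG none of the 7 passed, and those with the smallest p were Krt79 (1.58, adjusted p = 0.126) and the basal and bulge keratin Krt15 (-1.91, adjusted p = 0.376), which was 68.4 and 62.8 in NO_AG and 32.1 and 8.34 in AG. Krt15 passed without AG 1 (-2.91, adjusted p = 0.0112), and Krt79 passed with the keratinocyte limit at 150 (adjusted p = 0.0444) and with no leukocyte UMI (2.41, adjusted p = 0.00997). In AG_CPI against AG they were Krt1 (1.53, adjusted p = 0.435) and Krt10 (1.60, adjusted p = 0.570), and none of the 7 passed.

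Genes of activated or wounded epidermis had no call in any comparison. Of 46 listed genes 40 had a column and 17 passed the filter. Some of these passed it only through antigen-exposed mice, so their directions are not counted. Stfa1, a cysteine protease inhibitor gene, was 0.219 and 0.145 per 10000 in the NO_AG mice, 0.675 and 2.42 in the AG mice and 4.43 and 1.69 in the AG_CPI mice, with adjusted p = 0.285 for AG and 0.0667 for AG_CPI against NO_AG. Sprr1b, another envelope precursor, was 0.000543 and 0.00458, 0.0625 and 1.05, and 1.30 and 1.31, with adjusted p = 0.0852 for AG_CPI against NO_AG. Without AG 1 or without AG 2, both genes passed in that comparison, but Sprr1b is at or above the filter's 0.1 in AG 2 and the AG_CPI mice alone, so its test there was open only through mice where it is high. Sprr1a in AG against NO_AG had a difference of 1.79 (adjusted p = 0.369), or 3.06 (adjusted p = 0.00467) with the keratinocyte limit at 150. Between AG_CPI and AG the smallest p belonged to the matrix gene Tnc (-0.93, adjusted p = 0.531) and the alarmin gene S100a9 (1.58, adjusted p = 0.570). The list and the stress keratins were drawn up with earlier results of these data known.

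Of 35 listed upstream factors and receptors of stress keratins, 32 passed the filter. Ifngr1, a chain of the interferon-gamma receptor, fell in AG_CPI against NO_AG from 1.36 and 0.974 per 10000 to 0.228 and 0.282, a difference of -1.74 (SE 0.21, adjusted p = 0.0288, limma). Its AG mice, at 0.399 and 0.433, lay between the other groups. Ifngr1 passed in 12 of 19 alternatives, where its difference ran from -3.01 to -1.08. The call was lost, among others, without either NO_AG mouse and without either AG_CPI mouse. With each library left out in turn the difference ran from -2.01 to -1.47. Between AG_CPI and AG the list had no call, and Fosb (0.85) and Il1r1 (-0.51), with adjusted p = 0.570 each, had the smallest p. The median of the list was -0.20 in AG and -0.30 in AG_CPI against NO_AG, with 12 and 11 of 32 positive. Over all tested genes the median was -0.01 and 48.3% were positive in each comparison.

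Desmosome and filament linker genes, which anchor keratin filaments, had no call in 15 tested genes of 17. Dst, the linker of basal filaments to the hemidesmosome, was 6.85 and 5.35 per 10000 in the NO_AG mice, 2.78 and 2.23 in the AG mice and 3.42 and 3.05 in the AG_CPI mice, with a difference of -1.16 (adjusted p = 0.128) for AG against NO_AG. Dsc1, a desmosomal cadherin, had 1.42 (adjusted p = 0.273) for AG and 1.58 (adjusted p = 0.109) for AG_CPI against NO_AG. Dsc1 passed for AG without AG 1 (2.00, adjusted p = 0.0249). For AG_CPI it passed in 4 alternatives, without AG 1 (adjusted p = 0.0299), without AG 2 (adjusted p = 0.029), with summed UMIs (adjusted p = 0.0491) and with no leukocyte UMI (adjusted p = 0.0499). Dsg1a had 1.14 (adjusted p = 0.488) and Dsc3 0.68 (adjusted p = 0.561) for AG_CPI against AG, and Dsg1a had 0.92 (adjusted p = 0.136) against NO_AG. Medians were 0.11, 0.17 and 0.46 for AG against NO_AG, AG_CPI against AG and AG_CPI against NO_AG. The targets of Nrf2, the oxidative stress factor, also had no call in 5 tested genes of 10. Gstm1 was 2.05 and 1.96, 1.61 and 0.466, and 0.279 and 0.723, with adjusted p = 0.732, 0.725 and 0.186 in the same order of comparisons. Gclc had -0.50 (adjusted p = 0.740) for AG and -0.74 (adjusted p = 0.264) for AG_CPI against NO_AG, and Txnrd1 had -0.43 (adjusted p = 0.700) for AG_CPI against AG.

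T cells are not known to make these keratins, so their keratin UMIs were read as RNA from other cells. Whether it came as free RNA or in droplets with another cell was not tested. T cells were cells with a UMI of Ptprc and of Cd3d, Cd3e or Cd3g, 957 to 1404 per library, with a median of 2378 to 2881 UMIs. Krt17 was 1.28 and 3.11 per 10000 T cell UMIs in the NO_AG pair, 1.39 and 4.26 in the AG pair, and 0.128 and 0.685 in AG_CPI. Krt16 was 0.00283 and 0.0119, 0.0228 and 1.36, and 0.0517 and 0.0782. Krt6a was 0.00574 and 0.0339, 0.0236 and 1.93, and 0.162 and 0.177, and Krt6b was 0.00871 and 0, 0 and 0.358, and 0.0651 and 0.0245. AG 2 was the highest for each gene.

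In T cells thinned to 1500 UMIs, Krt16 was found in 7.57% in AG 2 and in at most 0.660% elsewhere, and Krt6a in 10.2% in AG 2 and at most 1.84% elsewhere. Krt17 was found in 8.36% and 14.7% in the NO_AG pair, 7.76% and 20.7% in the AG pair, and 1.60% and 4.00% in AG_CPI. Every keratinocyte share of Krt6a, Krt16 and Krt17 given above exceeded the T cell share of its own library. Krt6b in keratinocytes did not in NO_AG 1, where it was 0% against 0.209%, nor in AG 1, where both were 0%, nor in AG_CPI 2, where it was 0% against 0.160%.

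Relative to keratinocytes, the T cell level of Krt16 was 17.3% in AG 2 and 0.716% to 9.10% in the other mice. For Krt14, a keratin of all basal cells, the figures were 12.3% and 0.905% to 4.14%, so AG 2 was high for both. Among T cells with Krt5 and Krt14 together under 50 per 10000, which leaves out cells with much keratin, Krt16 in AG 2 fell from 1.36 to 0.141, or 1.79% of its keratinocyte level, and Krt17 from 4.26 to 1.14. Per 100 units of Krt14, Krt16 in keratinocytes and in T cells was 0.139 and 0.103 for NO_AG 1, 0.135 and 0.295 for NO_AG 2, 0.696 and 0.971 for AG 1, 8.52 and 12.0 for AG 2, 5.62 and 4.44 for AG_CPI 1, and 2.66 and 2.79 for AG_CPI 2. The T cell ratio was thus the higher in 4 of 6 mice. For Krt17 it was the higher in all 6, such as 46.5 against 18.3 in NO_AG 1, 77.4 against 29.3 in NO_AG 2 and 37.5 against 32.4 in AG 2.

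**Figure D5:**
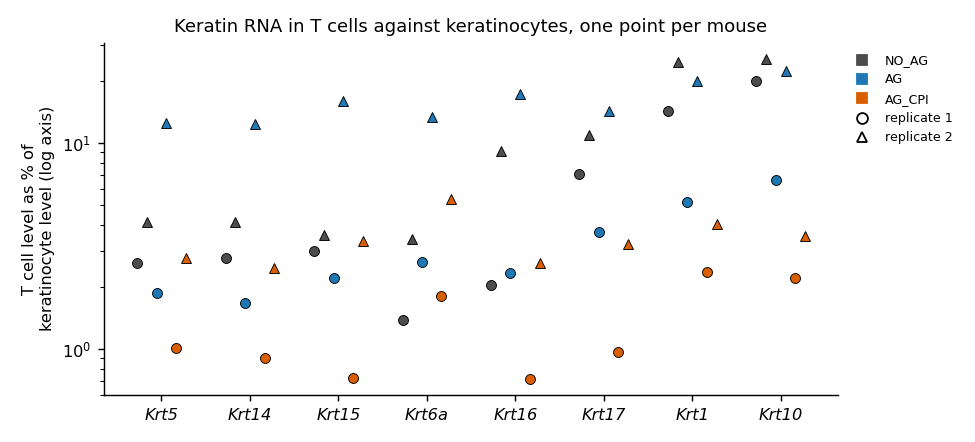
T cell level of 8 keratin genes as a percentage of the level in keratinocytes of the same mouse (vertical axis, log scale), with colours for groups and symbols for replicates. AG replicate 2 is highest for Krt5, Krt14, Krt15, Krt6a, Krt16 and Krt17, and AG_CPI replicate 1 is lowest for all but Krt6a.

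The T cell test covered Krt6a and Krt17, since Krt16 and Krt6b did not pass the filter. Neither was called in any comparison, where 5.18%, 0.0625% and 14.7% of 8006 genes were called in AG against NO_AG, AG_CPI against AG and AG_CPI against NO_AG. Krt17 had a difference of -2.10 (SE 0.68, adjusted p = 0.0809) for AG_CPI against NO_AG and -2.54 (adjusted p = 0.241) against AG, with both AG_CPI mice lower than both others each time, as were 48.5% and 23.4% of genes. In T cells with Krt5 and Krt14 together under 50, Krt17 passed in both, at -1.61 (adjusted p = 0.00533) and -1.99 (adjusted p = 0.0256). In all T cells it passed against NO_AG without AG 1 (adjusted p = 0.0323), without AG 2 (adjusted p = 0.028) and without AG_CPI 2 (-3.01, adjusted p = 0.0493), and was -1.20 without AG_CPI 1 (adjusted p = 0.413). Krt6a depended on AG 2: in AG against NO_AG it was 4.12 (adjusted p = 8.36e-05) without AG 1 and 0.09 (adjusted p = 0.832) without AG 2. Krt6a also passed in AG_CPI against NO_AG without AG 1 (1.28, adjusted p = 0.00136) and without AG 2 (1.28, adjusted p = 0.00111). T cell Krt6a reached the filter's 0.1 in AG 2 and both AG_CPI mice alone, so without AG 2 it was tested only through the group called higher. In AG_CPI against AG it was -2.84 (adjusted p = 0.00492) without AG 1 and 1.19 (adjusted p = 0.0362) without AG 2, so the AG mice gave opposite calls. With the deposited scaling alone, in place of the trimmed mean scaling, the median over all genes moved by -0.13 and -0.19 in AG and AG_CPI against NO_AG, and the higher share of called genes went from 60.5% to 38.01% and from 56.4% to 29.4%, and in AG_CPI against AG from 80% to 66.7%.

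In other skin cells Krt6a and Krt16 were low outside AG 2, whereas Krt17 was not always low. In fibroblasts, over the 5 mice with at least 10 such cells, Krt16 was 0.0616 per 10000 or less but for 1.01 in AG 2, and Krt6a was 0.0457 or less but for 2.02 in AG 2. In myeloid cells Krt16 was at most 0.323, also in AG 2, and in Langerhans cells at most 0.513, again in AG 2. Krt17 in fibroblasts was 1.84 and 4.41 for NO_AG, 2.09 and 3.52 for AG, and 0.953 for AG_CPI 2. In endothelial cells it was 1.68 and 7.69 for NO_AG and 0.861 and 0.0946 for AG, from 13 to 42 cells a mouse, with fewer than 10 cells in either AG_CPI mouse. Krt17 in Langerhans cells was 0.985 and 2.35 in the NO_AG mice, 0.209 and 0.780 in the AG mice and 0.0561 and 0.0773 in the AG_CPI mice. The AG_CPI values rest on 1 UMI each, in 16 and 20 cells. AG 2 had the most Krt6a and Krt16 in fibroblasts, T cells, myeloid and Langerhans cells, as it had in keratinocytes, and how far free RNA entered its keratinocyte values was not tested.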

How the data were processed

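Single-cell RNA of dissociated skin was profiled in 6 mice with the 10x Chromium 5' kit, per the labels' protocols, and Cell Ranger 3.1 and mm10 are named in the submitters' processing notes. The aligner settings, annotation, filters and use of strand are not given in the sources used here. The authors deposited log10 values per gene and cell, per the file values log10 of 1 plus UMIs per 10000 of the cell. Read as log10, 100% of values gave whole UMIs within 0.01. Read as natural logs, 65.4% to 68.3% did. The deposited genes held 95.4% to 96.7% of each library's UMIs.

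Cells under 200 genes or over 20% mitochondrial UMIs were dropped (51 cells), and 666 doublets by Scrublet score (scanpy 1.11.5, an assumed rate of 0.8% for each 1000 cells) were removed. Levels were averaged over a mouse's cells, scaled with TMM factors, and fitted as log2 of the level plus 0.1 with limma-trend 3.58.1 in R 4.3.3, by group over all 6 mice, with Benjamini-Hochberg adjustment over all tested genes. A gene was tested where 2 or more libraries had 10 UMIs of it and a level of 0.1 per 10000. On simulated data with 200 of 8343 genes changed, for AG against NO_AG in keratinocytes, the fit called 35% of genes changed 2-fold and 83.9% of those changed 4-fold, with a mean of 4.1 false calls. The simulation gave each gene the same normal spread in all groups. The AG mice lay far apart for Krt6a and Krt16, so these figures need not hold for the stress keratins. Intervals and limits cover counting error only. Fold changes on this scale understate those of low genes. Interactions were fitted on within-mouse differences between gates.

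Named genes were the 4 stress keratins, from each list the called genes (at most 4 a direction) or else the 2 with the smallest p, and the 5 nearest genes by median correlation. The genes and lists were chosen with earlier results of these data known. The alternatives within gates, other gate limits and other gate pairs were chosen after seeing the data. One gene of the list of upstream factors is not reported here.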

Additional observations from a re-analysis of the deposited data

How the results depend on the processing

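Of 1676 recomputed values, the 876 of stress keratins held their direction and side of the threshold in 803. Most of these belong to differences that were not called to begin with. Of the called ones, suprabasal Krt16 for AG_CPI against NO_AG passed in 12 of 15 alternatives. Bulge or germ Krt17 passed in 12 of 15 against NO_AG and 10 of 15 against AG. The 42 genes called in keratinocytes for AG against NO_AG became 2 with no filter on low values (which widens the adjustment), 13 in cells with no leukocyte UMI, 19 outside the suprabasal and follicle gates and 65 with UMIs summed over cells. The 49 for AG_CPI against NO_AG became 20 in thinned cells, 77 with doublets kept, 8 with the keratinocyte limit at 20, 3 with no filter, 14 outside the gates, 20 with a pseudocount of 0.5 and 157 with summed UMIs. With summed UMIs Krt16 was 3.77 and 4.09 in these comparisons and passed. Without a filter suprabasal Krt16 was 5.64 and bulge or germ Krt17 in AG_CPI against AG -1.87, and with lower limits and thinned gates the latter was -1.86 and -2.31, each losing the call. In T cells Krt17 for AG_CPI against AG passed at -1.99 with Krt5 and Krt14 under 50. For AG_CPI against NO_AG it passed at -1.61 there, at -2.08 with at least 3 Cd3 UMIs and at -2.68 with doublets kept.

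Outside the gates Krt1 (-1.32) and Krt10 (-0.13) for AG_CPI against AG and Krt1 (-0.84) for AG_CPI against NO_AG turned sign, which says nothing of these 2 genes, since the suprabasal gate removes cells by their own level. Signs also turned there for AG_CPI against AG in Krt16 (-1.76) and Dsg1a (-0.29), and for AG_CPI against NO_AG in Dsg1a (-1.46). Krt17 for AG_CPI against NO_AG was 0.29 with no leukocyte UMI. In the bulge or germ gate Krt6a for AG_CPI against AG was 0.0331 with lower limits and 0.22 with thinned gates, Krt6a against NO_AG was -1.76 with higher limits, and Krt16 against NO_AG was 0.39 with thinned gates. For genes other than Krt1 and Krt10 the cause was not tested.

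Leaving out each library in turn left 3 to 117 called genes for AG against NO_AG, 0 to 2 for AG_CPI against AG and 4 to 169 for AG_CPI against NO_AG. The first count was 117 without AG 1, 3 without AG 2, and 8 and 9 without NO_AG 1 and 2, and the last was 160 and 169 without AG 1 and 2, 6 and 12 without AG_CPI 1 and 2, and 4 and 6 without NO_AG 1 and 2. A group left with 1 mouse was assumed to vary like the others. In keratinocytes Krt16 ran from 2.28 to 5.11 for AG and from 3.77 to 5.07 for AG_CPI against NO_AG. For AG_CPI against AG it ran from -0.69 to 2.13, Krt6a from -1.34 to 2.47, Krt6b from -1.005 to 2.97 and Gstm1 from -1.64 to 0.0219. In the suprabasal gate Krt16 for AG_CPI against NO_AG ran from 4.76 to 6.52 and Krt17 from -0.24 to 1.84. Against AG, Krt6a ran from -0.93 to 3.01, Krt6b from -0.99 to 4.42 and Krt17 from -1.93 to 0.14. In the upper follicle gate Krt6a ran from -0.37 to 3.21 and Krt17 from -0.19 to 0.85 for AG against NO_AG, and Krt6a from -2.01 to 1.56 and Krt16 from -3.44 to 0.0295 for AG_CPI against AG. In the bulge or germ gate Krt17 ran from -1.96 to -1.77 against AG and from -2.29 to -2.06 against NO_AG for AG_CPI, and Krt6a from -0.0423 to 2.09 for AG against NO_AG and from -1.61 to 0.52 for AG_CPI against AG. In the remaining cells Krt6a for AG_CPI against AG ran from -1.56 to 2.43 and Krt17 for AG_CPI against NO_AG from -1.33 to 0.33. In T cells Krt6a ran from 0.0914 to 4.12 for AG against NO_AG, from -2.84 to 1.19 for AG_CPI against AG and from 1.101 to 1.41 for AG_CPI against NO_AG. Krt17 there ran from -0.29 to 1.18 for AG against NO_AG and from -3.01 to -1.20 for AG_CPI against NO_AG. Krt6b in keratinocytes had no value without AG 2, without AG_CPI 1 or outside the gates, where it did not pass the filter.

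Over the genes tested in keratinocytes, the deviations of same-numbered mice from their group means correlated at 0.21, 0.10 and 0.04 between groups. The numbers were therefore not taken to pair the mice. With the replicate number as a block the keratinocyte counts were 45, 0 and 39 genes, and T cell Krt17 for AG_CPI passed at -2.54 against AG and -2.10 against NO_AG. Under the block suprabasal Krt16 passed for AG (adjusted p = 0.0382, limma) and Krt6a for AG_CPI against NO_AG (adjusted p = 0.0447), as did Krt16 for AG against NO_AG in the remaining cells (adjusted p = 0.0266) and Dst for AG against NO_AG (-1.16, adjusted p = 0.0402). The Krt6b values of NO_AG 1, NO_AG 2 and AG 1 rest on 0, 1 and 2 UMIs.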
